A study of Mus musculus with 8 samples.

Results

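The genes described here are 31 genes of cholesterol and fatty acid synthesis, read as the rows of the deposited table whose gene name is in that list. All 31 were found among the 21878 gene symbols, and all 31 passed the filter on low values that left 12884 genes for testing. They were grouped by role into 7 genes of the mevalonate pathway, 11 genes of the steps between squalene and cholesterol, 6 genes of sterol-sensing control and 7 genes of fatty acid synthesis. RNA was sequenced from lumbar 4 and 5 dorsal root ganglia, which hold the cell bodies of the sensory neurons whose axons run in the sciatic nerve, collected from C57BL/6 mice 3 days after surgery. The groups were dKO SNI (Advillin-Cre with floxed Myh9 and Myh10, sciatic nerve cut), dKO sham (the same alleles, sham surgery), WT SNI (floxed Myh9 and Myh10 without Cre, nerve cut) and WT sham (floxed alleles without Cre, sham surgery), with 2 libraries each and 8 in all. All groups therefore carried floxed Myh9 and Myh10, genes for the non-muscle myosin IIA and IIB heavy chains. SNI is the name that the sample titles give to the axotomy. Cre was driven by Advillin, a gene of sensory neurons, so the glia, fibroblasts and immune cells of a dKO ganglion keep both myosin genes, and no age of the mice is given in the sources used here.

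Cholesterol is built from acetyl-CoA through mevalonate, isoprenoids and squalene, and fatty acids from acetyl-CoA through malonyl-CoA. Both pathways are controlled by the transcription factors SREBP-1 and SREBP-2 (genes Srebf1 and Srebf2), which are held in the endoplasmic reticulum by Scap and the Insig proteins while sterols are plentiful and are released to the nucleus when sterols are short. In peripheral nerve the Schwann cells make much of the cholesterol and fatty acids of myelin locally, and neurons also need membrane lipid to extend axons.

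The promoters of 4 members are shown to let the sequence around their start sites be read beside their values. The plan was to show members that passed the averaged injury comparison below, and Hmgcs1 did not (limma, adjusted p = 0.077). The 4 promoters are those of Hmgcs1 (HMG-CoA synthase of the mevalonate pathway), Srebf2 (the sterol-sensing factor), Dhcr7 (the last step of a cholesterol branch, lower after axotomy in both genotypes) and Hsd17b7 (higher after axotomy in both genotypes). Each runs 5′ to 3′ on the strand of the gene, from 250 bases before to 50 bases after the start site, 300 bases in all, from RefSeq on GRCm38.p6. Capitals mark matches on either strand to TCACNCCAC (a sterol regulatory element), CCAAT (the NF-Y box), GGGCGG (an Sp1 box) and CACGTG (an E-box).
Hmgcs1 chr13:119690101-119690400 + strand: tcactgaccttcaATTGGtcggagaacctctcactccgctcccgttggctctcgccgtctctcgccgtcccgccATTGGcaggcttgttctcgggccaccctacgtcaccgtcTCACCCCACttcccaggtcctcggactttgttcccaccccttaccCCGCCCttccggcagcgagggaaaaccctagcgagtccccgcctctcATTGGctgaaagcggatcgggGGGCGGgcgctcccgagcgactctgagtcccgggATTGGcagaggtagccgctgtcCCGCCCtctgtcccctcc
Srebf2 chr15:82147019-82147318 + strand: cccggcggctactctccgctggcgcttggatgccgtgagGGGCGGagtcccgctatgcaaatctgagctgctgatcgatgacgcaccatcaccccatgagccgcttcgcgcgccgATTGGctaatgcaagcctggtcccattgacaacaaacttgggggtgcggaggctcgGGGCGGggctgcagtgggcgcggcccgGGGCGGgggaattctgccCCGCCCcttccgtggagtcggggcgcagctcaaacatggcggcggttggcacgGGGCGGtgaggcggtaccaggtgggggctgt
Dhcr7 chr7:143829964-143830263 + strand: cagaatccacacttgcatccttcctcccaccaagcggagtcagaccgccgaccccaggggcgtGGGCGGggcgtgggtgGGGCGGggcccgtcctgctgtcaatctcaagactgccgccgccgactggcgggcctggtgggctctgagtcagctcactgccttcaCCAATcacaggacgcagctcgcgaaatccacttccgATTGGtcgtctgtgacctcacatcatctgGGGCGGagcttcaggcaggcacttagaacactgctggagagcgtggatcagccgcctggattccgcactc
Hsd17b7 chr1:169969156-169969455 - strand: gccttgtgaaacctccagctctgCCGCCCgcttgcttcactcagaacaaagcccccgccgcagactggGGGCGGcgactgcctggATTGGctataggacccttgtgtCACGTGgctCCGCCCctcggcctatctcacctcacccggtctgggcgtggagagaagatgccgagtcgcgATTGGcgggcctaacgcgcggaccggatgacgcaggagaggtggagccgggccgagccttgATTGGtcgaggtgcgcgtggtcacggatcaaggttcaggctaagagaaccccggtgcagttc

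Of the 31 members, 25 had a promoter window in the RefSeq table, and Fdps, Fdft1, Sqle, Stard4, Scd1 and Scd2 had none. The NF-Y box CCAAT was present in 21 of the 25 windows (84.0%), against 41.1% of the 27025 genes with a window. GGGCGG was present in 20 of the 25 (80.0%, against 38.2% of all genes) and CACGTG in 6 (24.0%, against 8.09%). The sterol regulatory element as spelled above was found in 1 member, Hmgcs1 (4.0%, against 1.44%). Dhcr7 has 3 windows in the table, and the window with the most matches is shown. The genes whose levels moved in opposite directions, Dhcr7 and Hsd17b7, both held CCAAT and GGGCGG, and a match is a description of the letters only.

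The values are FPKM, fragment counts scaled to transcript length and library size, and the totals per library ran from 278310 to 339920 FPKM. Without read totals no counting error can be set beside a value. The targeted genes were lower in every dKO library than in every WT library of the same surgery. Myh9 measured 24.6 and 24.4 FPKM in the dKO SNI libraries, 10.9 and 12.1 in dKO sham, 30.8 and 29.7 in WT SNI, and 27.2 and 31.6 in WT sham. Myh10 measured 5.31 and 4.12 FPKM in the dKO SNI libraries, 12.2 and 14.4 in dKO sham, 13.8 and 10.4 in WT SNI, and 18.1 and 23.5 in WT sham. Y-linked transcripts summed to 37.4 to 38.7 FPKM in the dKO SNI libraries and 22.8 to 23.2 in WT sham, but to at most 0.0109 in dKO sham and WT SNI. Each pair of groups compared thus differed in them, as ganglia of male and of female mice would. The members Nsdhl and Ebp lie on the X chromosome. The part that sex has in the pairwise comparisons was not tested and cannot be told apart from surgery or genotype there. WT sham 2 also held muscle transcripts, with muscle creatine kinase Ckm at 138 FPKM there and at most 3.17 FPKM elsewhere. The labels do not tie the 2 libraries of a group to different mice. The p-values below therefore measure the spread between libraries, which may be technical.

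FPKM is scaled to transcript length, so levels can be set beside each other between genes. The desaturase Scd2 had the highest mean level over the 8 libraries (350 FPKM), followed by Hmgcs1 (235 FPKM), the desaturase Scd1 (167 FPKM) and the sterol C4 oxidase Msmo1 (158 FPKM). The lowest were Acaca, acetyl-CoA carboxylase (7.19 FPKM), the sterol sensor partner Insig2 (9.14 FPKM), the cyclase Lss (10.5 FPKM) and Srebf1 (10.7 FPKM). The 31 levels summed to 1461 and 1203 FPKM in the dKO SNI libraries, 1806 and 1872 in dKO sham, 1788 and 1849 in WT SNI, and 2056 and 2091 in WT sham. The dKO SNI libraries were thus the lowest and the WT sham libraries the highest, while dKO sham and WT SNI overlapped. The library dKO SNI 2 held the lowest value of all 8 for 23 of the 31 members and lay below dKO SNI 1 for 28.

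The first question was what cutting the nerve did to these genes, and most of those that passed the test fell. Changes here are differences of log2(FPKM + 1), ± is their standard error in limma, and a gene is called when its Benjamini-Hochberg adjusted p over all 12884 genes is below 0.05. Averaged over both genotypes, 19 members fell and 2 rose in SNI against sham, where 25.5% of all genes were called lower and 29.5% higher, 55% in all. The median change of the 31 members was -0.35, beside 0.04 over all genes tested. In dKO SNI against dKO sham, 19 members fell and 2 rose, beside 24.6% of all genes called lower and 23.8% higher (48.4% in all), with a median of -0.56 beside -0.00076. In WT SNI against WT sham, 3 members fell and 2 rose, beside 9.38% of all genes called lower and 13.6% higher (23% in all), with a median of -0.23 beside 0.07. Both SNI libraries lay below both sham libraries for 21 members in dKO (37.8% of all genes) and above them for 4 (37.7%), and in WT for 20 (29.2%) and 2 (39.8%). All 4 SNI libraries lay below all 4 sham libraries for 9 members (17.3% of all genes) and above them for 2 (17.4%). The WT count, 5 of 31 members, is no larger a share than the 23% of all genes, and it rested on single libraries. It fell without WT SNI 2, without WT sham 1 or without WT sham 2, and so did the number of all genes called. The members' median was then -0.20, -0.23 and -0.21. The dKO count of 21 fell without dKO SNI 2 or without dKO sham 2, as did the number of all genes called, with medians of -0.41 and -0.42. The averaged median stayed between -0.28 and -0.46 when any 1 library was left out. In bulk tissue, fewer cells of a type and less RNA per cell cannot be told apart.

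**Figure D1:**
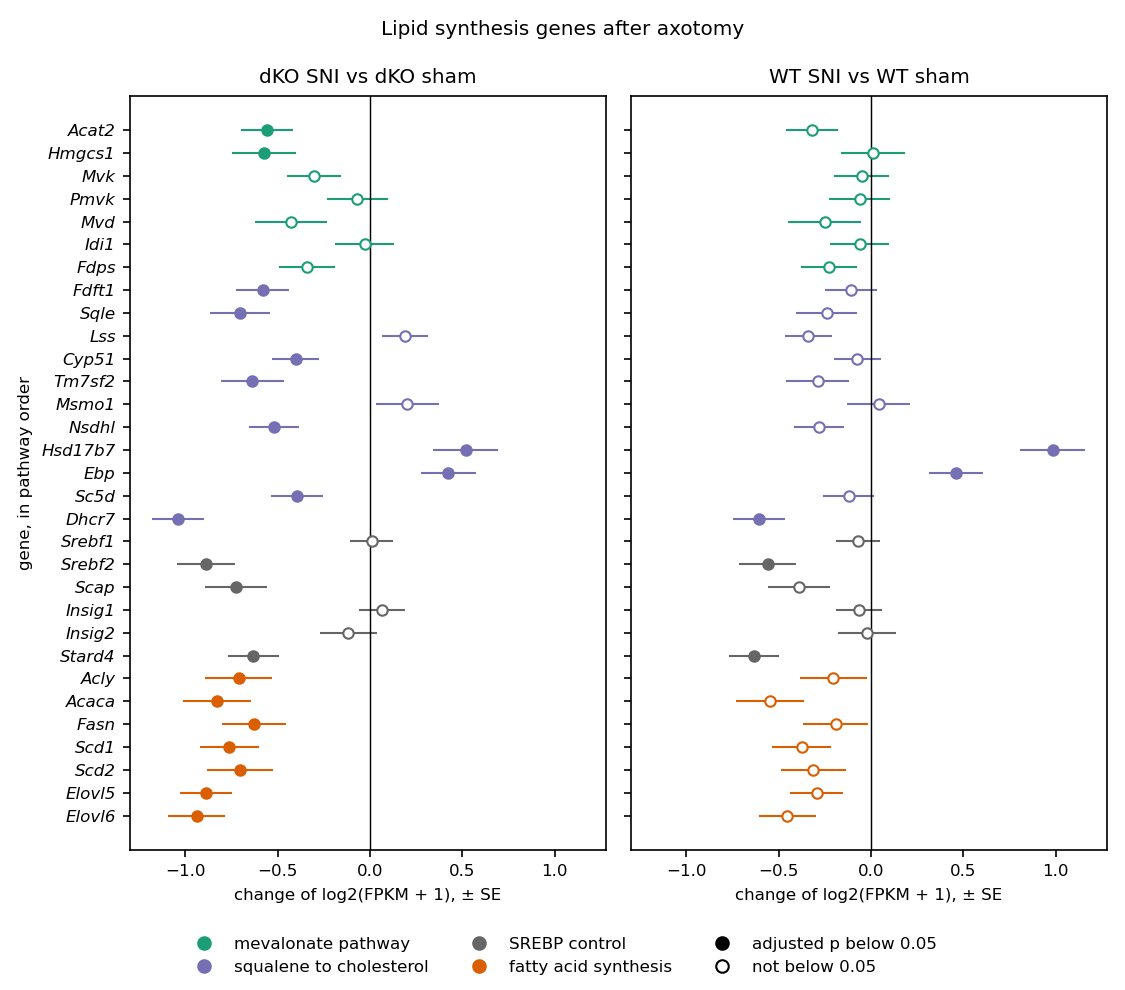
Change of log2(FPKM + 1) after axotomy for the 31 genes, with dKO SNI against dKO sham on the left and WT SNI against WT sham on the right; points are limma estimates, bars are 1 standard error, and filled points have an adjusted p below 0.05. In dKO 19 filled points lie left of 0 and 2 lie right of it, and in WT 3 lie left and 2 right, with Hsd17b7 and Ebp to the right in both panels.

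Fatty acid synthesis was the group in which every member was called lower. Averaged over the genotypes 7 of 7 genes fell, with a median change of -0.57, and in dKO alone 7 of 7 fell, with a median of -0.76. Some of these calls rested on single libraries. The averaged calls of Acly and Fasn were lost without WT SNI 2 or without WT sham 2. The dKO calls of Acly, Fasn and Scd2 were lost without dKO SNI 2. In WT alone none of the 7 passed, although all 7 changes were below 0 (median -0.31). Of all genes 25.5% were called lower in the averaged comparison, 24.6% in dKO and 9.38% in WT. The summed level of the 7 genes was 501 and 386 FPKM in the dKO SNI libraries against 752 and 726 in dKO sham, so dKO SNI stood at 60.0% of dKO sham. It was 723 and 733 FPKM in the WT SNI libraries against 869 and 942 in WT sham, or 80.4%. In both genotypes the SNI and sham sums did not overlap.

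Elovl6, which lengthens palmitate to stearate, measured 11.1 and 7.88 FPKM in the dKO SNI libraries against 18.5 and 19.2 in dKO sham, and 14.1 and 13.3 in WT SNI against 19.9 and 18.2 in WT sham. All 4 SNI libraries lay below all 4 sham libraries, and the averaged change was -0.70 ± 0.11 (limma, adjusted p = 0.000711). The sham libraries of the genotypes overlapped. Elovl5, the elongase of polyunsaturated fatty acids, measured 37.8 and 31.2 FPKM in the dKO SNI libraries against 69.1 and 60.1 in dKO sham, and 51.6 and 51.3 in WT SNI against 63.9 and 62.9 in WT sham. Its averaged change was -0.59 ± 0.10 (adjusted p = 0.00102), again with no overlap between SNI and sham libraries. Acaca, which makes malonyl-CoA and commits acetyl-CoA to fatty acids, measured 4.80 and 3.71 FPKM in the dKO SNI libraries against 8.24 and 8.34 in dKO sham, and 7.83 and 5.11 in WT SNI against 9.13 and 10.3 in WT sham. Its averaged change was -0.69 ± 0.13 (adjusted p = 0.00189), with all SNI libraries below all sham libraries. These 3 genes were called in dKO, and in WT their adjusted p was 0.0595 (Acaca), 0.0624 (Elovl6) and 0.157 (Elovl5).

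Scd1 and Scd2 place the double bond that turns stearate into oleate, and Scd2 is the main form in brain and nerve. Scd2 measured 255 and 192 FPKM in the dKO SNI libraries against 364 and 359 in dKO sham, and 361 and 365 in WT SNI against 429 and 473 in WT sham. The dKO SNI libraries were the lowest, the WT sham libraries the highest, and WT SNI and dKO sham lay together between them. Scd1 measured 112 and 94.0 FPKM in the dKO SNI libraries against 181 and 169 in dKO sham, and 155 and 184 in WT SNI against 212 and 228 in WT sham. In dKO the desaturases fell by 0.76 (Scd1, SE 0.16) and 0.70 (Scd2, SE 0.18) on the log2 scale, and in WT their changes of -0.38 and -0.31 did not pass. Acly, which supplies cytosolic acetyl-CoA from citrate, measured 63.4 and 44.9 FPKM in the dKO SNI libraries against 90.2 and 85.8 in dKO sham, and 106 and 87.7 in WT SNI against 107 and 116 in WT sham. Fasn, the fatty acid synthase, measured 17.1 and 12.6 FPKM in the dKO SNI libraries against 21.2 and 25.6 in dKO sham, and 28.3 and 26.0 in WT SNI against 28.1 and 34.5 in WT sham. Acly and Fasn fell in dKO, by 0.71 and 0.63 on the log2 scale (adjusted p 0.0104 and 0.0151). In WT their changes were -0.20 and -0.19 and the Fasn libraries of the 2 surgeries overlapped.

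**Figure D2:**
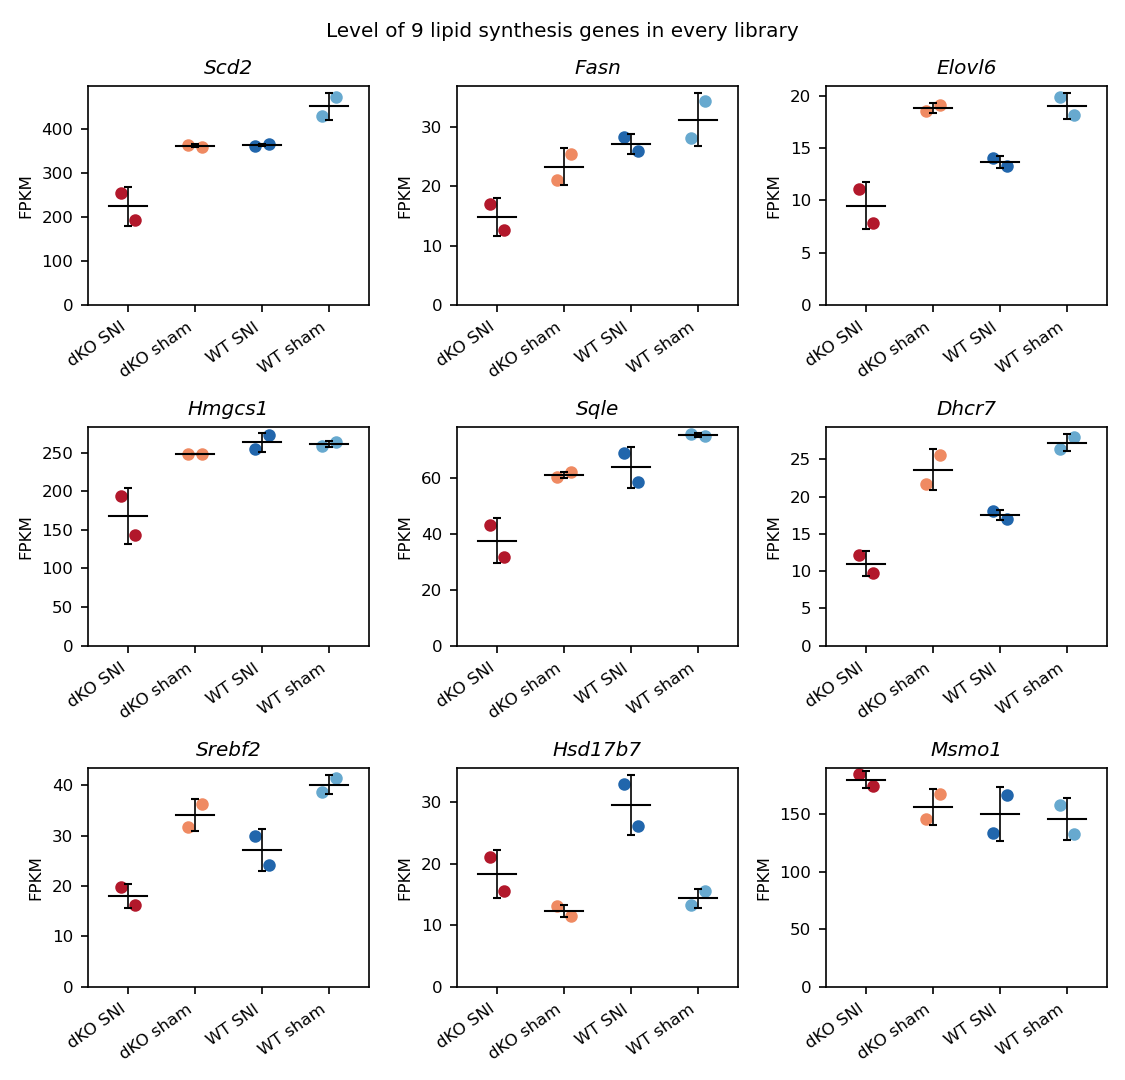
FPKM of 9 of the genes in every library, by group; points are libraries, the long line is the group mean and the bars are the SD of the 2 libraries. Scd2, Fasn, Elovl6, Hmgcs1, Sqle, Dhcr7 and Srebf2 are lowest in the 2 dKO SNI libraries, Hsd17b7 is highest in WT SNI, and Msmo1 is highest in dKO SNI.

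Between squalene and cholesterol the genes did not move together. Averaged over the genotypes 7 of 11 fell and 2 rose (median -0.26), beside 25.5% of all genes called lower and 29.5% higher. In dKO the same counts were found, 7 of 11 lower and 2 higher (median -0.40), beside 24.6% and 23.8% of all genes. In WT 1 fell and 2 rose (median -0.12). These WT counts are near the 9.38% of all genes called lower and 13.6% called higher, and are not a result about this group. Dhcr7, the 7-dehydrocholesterol reductase on chromosome 7 of GRCm38 (143823145 to 143848410, plus strand), measured 12.2 and 9.82 FPKM in the dKO SNI libraries against 21.7 and 25.5 in dKO sham, and 18.04 and 17.01 in WT SNI against 26.4 and 28.0 in WT sham. All SNI libraries lay below all sham libraries. Dhcr7 fell by 1.04 in dKO (SE 0.14, adjusted p = 0.000483) and by 0.61 in WT (SE 0.14, adjusted p = 0.0156). It had the smallest p of the 31 members in the averaged comparison (-0.82 ± 0.10, adjusted p = 0.000173).

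Hsd17b7 and Ebp rose. Hsd17b7, the 3-ketosteroid reductase of sterol C4 demethylation, lies on chromosome 1 (169949535 to 169969241, minus strand) and measured 21.05 and 15.51 FPKM in the dKO SNI libraries against 13.1 and 11.6 in dKO sham, and 33.0 and 26.2 in WT SNI against 13.3 and 15.50 in WT sham. Every SNI library lay above every sham library, dKO SNI 2 only just so against WT sham 2, and the WT SNI libraries were the highest. The change was 0.52 ± 0.18 in dKO (adjusted p = 0.035) and 0.99 ± 0.18 in WT (adjusted p = 0.00487), and the WT call held under every other setting tried. The dKO call was lost without the filter on low values, without dKO SNI 1, without dKO sham 1 and without dKO sham 2. Ebp, the sterol Δ8-Δ7 isomerase, measured 28.3 and 25.9 FPKM in the dKO SNI libraries against 19.3 and 20.6 in dKO sham, and 28.2 and 28.8 in WT SNI against 23.4 and 17.8 in WT sham. Its SNI libraries also lay above all sham libraries, with an averaged change of 0.44 ± 0.10 (adjusted p = 0.00573). In WT alone its adjusted p was 0.0494, and this call was lost under 13 other settings, among them without any 1 of WT SNI 1, WT SNI 2 and WT sham 2. Its dKO call was lost without any 1 of the 4 dKO libraries.

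Sqle, the squalene epoxidase that is one of the rate-limiting steps, measured 43.2 and 31.8 FPKM in the dKO SNI libraries against 60.2 and 61.8 in dKO sham, and 68.9 and 58.4 in WT SNI against 75.6 and 74.7 in WT sham. It fell by 0.70 in dKO (SE 0.16, adjusted p = 0.00691), and its WT change of -0.24 did not pass. Nsdhl, a C4 demethylation dehydrogenase, measured 26.5 and 22.5 FPKM in the dKO SNI libraries against 36.9 and 34.0 in dKO sham, and 33.1 and 30.7 in WT SNI against 40.6 and 37.3 in WT sham. All its SNI libraries lay below all sham libraries (averaged change -0.40 ± 0.09, adjusted p = 0.00593). Tm7sf2, a sterol Δ14 reductase, also separated SNI from sham in all libraries (averaged change -0.46 ± 0.12, adjusted p = 0.0103), but 12.1% of its exonic bases are shared with Vps51 on the same strand. Fdft1, squalene synthase, fell in dKO (-0.58 ± 0.14, adjusted p = 0.00842). Its exons share 774 bases, 18.3%, with Ctsb on the opposite strand, and the labels do not say whether the libraries kept strand. Ctsb itself measured 237 and 188 FPKM in the dKO SNI libraries against 268 and 248 in dKO sham, and 333 and 305 in WT SNI against 301 and 285 in WT sham. Vps51 measured 11.2 and 8.39 FPKM in the dKO SNI libraries against 14.3 and 12.65 in dKO sham, and 15.8 and 10.6 in WT SNI against 13.7 and 16.7 in WT sham. The part of shared bases in the values of Fdft1 and Tm7sf2 was not tested.

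Cyp51 and Sc5d fell by 0.40 and 0.40 on the log2 scale in dKO (adjusted p 0.0268 and 0.0400). Cyp51 encodes lanosterol 14-demethylase and Sc5d the lathosterol oxidase. Their averaged changes of -0.24 and -0.26 were borderline, with adjusted p of 0.0478 and 0.0485. Both averaged calls were lost with quantile normalization, robust moderation, a replicate block or an additive model. Both dKO calls were lost in a fit to the 2 groups alone. Lss, which closes the sterol rings, and Msmo1 did not pass in any comparison. Msmo1 measured 185 and 175 FPKM in the dKO SNI libraries against 146 and 168 in dKO sham, and 134 and 167 in WT SNI against 158 and 133 in WT sham. Its dKO SNI libraries were the highest of the 8, while the WT groups overlapped.

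Of the 7 genes of the mevalonate pathway, 2 fell averaged over the genotypes (Acat2 and Fdps, list median -0.28), 2 fell in dKO (Acat2 and Hmgcs1, median -0.34) and none was called in WT (median -0.06). The share of 2 in 7 is near that of all genes called lower, 25.5% in the averaged comparison and 24.6% in dKO, and is not a result about this group. Acat2, the cytosolic thiolase that makes acetoacetyl-CoA, measured 33.8 and 31.3 FPKM in the dKO SNI libraries against 43.5 and 53.7 in dKO sham, and 46.4 and 45.1 in WT SNI against 54.5 and 60.4 in WT sham. The SNI libraries lay below the sham libraries of their own genotype, and the averaged change was -0.44 ± 0.10 (adjusted p = 0.00508). Hmgcs1, which makes HMG-CoA, measured 194 and 143 FPKM in the dKO SNI libraries against 248 and 249 in dKO sham, and 254 and 272 in WT SNI against 258 and 264 in WT sham. The dKO SNI libraries were the lowest of the 8: the dKO change was -0.58 ± 0.17 (adjusted p = 0.022) and the WT change was 0.01 ± 0.17 with overlapping libraries. Of the exonic bases of Hmgcs1, 12.1% are shared with a predicted antisense gene. Fdps, the farnesyl diphosphate synthase, was borderline (averaged change -0.28 ± 0.11, adjusted p = 0.0482), and 26.7% of its exonic bases are shared with a predicted gene on the same strand. The kinases Mvk and Pmvk, the decarboxylase Mvd and the isomerase Idi1 were called in no comparison. Idi1 measured 32.8 and 30.4 FPKM in the dKO SNI libraries, 35.7 and 29.1 in dKO sham, 27.3 and 35.1 in WT SNI, and 34.0 and 30.8 in WT sham, with all groups overlapping.

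Among the 6 genes of sterol-sensing control, Srebf2, Scap and Stard4 fell and Srebf1, Insig1 and Insig2 were not called. The falls were 3 of 6 averaged over the genotypes and in dKO, beside 25.5% and 24.6% of all genes. In WT they were 2 of 6, beside 9.38%. Srebf2 lies on chromosome 15 (82147181 to 82205379, plus strand) and encodes SREBP-2, the factor that mainly drives cholesterol genes. It measured 19.7 and 16.2 FPKM in the dKO SNI libraries against 31.8 and 36.3 in dKO sham, and 30.0 and 24.1 in WT SNI against 38.7 and 41.5 in WT sham. All SNI libraries lay below all sham libraries. Srebf2 fell by 0.89 in dKO (SE 0.15, adjusted p = 0.00163) and by 0.56 in WT (SE 0.15, adjusted p = 0.0297). Scap, the escort protein that carries SREBP to the Golgi, measured 8.08 and 7.17 FPKM in the dKO SNI libraries against 13.1 and 13.3 in dKO sham, and 13.1 and 9.20 in WT SNI against 13.5 and 16.0 in WT sham. It fell in dKO (-0.72 ± 0.17, adjusted p = 0.00666) and its WT change of -0.39 did not pass. Its exons share 13.2% of their bases with an unconfirmed transcript on the opposite strand.

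Stard4, a carrier that moves cholesterol between membranes and is itself an SREBP target, measured 9.89 and 12.5 FPKM in the dKO SNI libraries against 18.5 and 17.0 in dKO sham, and 12.91 and 13.02 in WT SNI against 21.3 and 20.1 in WT sham. The SNI libraries of both genotypes lay below all sham libraries, and its changes were -0.63 ± 0.14 in dKO (adjusted p = 0.00467) and -0.63 ± 0.14 in WT (adjusted p = 0.0107). Srebf1, whose product mainly drives fatty acid genes, measured 9.54 and 10.5 FPKM in the dKO SNI libraries against 9.56 and 10.3 in dKO sham, and 10.9 and 11.3 in WT SNI against 11.46 and 11.95 in WT sham. Its averaged injury change was -0.03 ± 0.08. Insig1, a sterol-sensing retention protein that is a classical SREBP target, had an averaged injury change of -1.53e-06 ± 0.09 and measured 42.0 and 38.4 FPKM in the dKO SNI libraries against 36.5 and 40.5 in dKO sham. In WT SNI it measured 44.5 and 44.4 FPKM against 46.3 and 46.6 FPKM in WT sham. Insig2 overlapped between SNI and sham in both genotypes (averaged change -0.07 ± 0.11).

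The second question was how the same genes differed between dKO and WT ganglia. Cre was present in dKO only, so loss of the 2 myosins cannot be told apart from an effect of Cre itself. Avil, the Advillin gene that drives Cre, measured 44.1 and 34.5 FPKM in the dKO SNI libraries and 75.3 and 80.0 in dKO sham. It measured 143 and 112 FPKM in WT SNI and 172 and 180 in WT sham. After axotomy 13 of 31 members were lower in dKO than in WT ganglia and none was higher, where 13.4% of all genes were called lower and 10.7% higher (24.1% in all). The median change of the members was -0.41, beside -0.03 over all genes. Of the 7 fatty acid genes 6 were lower, of the 11 squalene-to-cholesterol genes 4, of the 7 mevalonate genes 2 and of the 6 control genes 1. Both dKO SNI libraries lay below both WT SNI libraries for 25 members (37.4% of all genes) and above them for 2 (30.8%). The count of calls rested on single libraries: it was 0 without dKO SNI 2 or without WT SNI 1, where 13 and 14 members still had an unadjusted p below 0.05, and 8 without WT SNI 2. It was 7 in a fit to the 2 groups alone and 7 without the filter on low values.

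Fasn had the smallest p in this comparison, at -0.84 ± 0.17 (adjusted p = 0.0136), followed by Acly at -0.84 ± 0.18 (adjusted p = 0.0147) and Sqle at -0.76 ± 0.16 (adjusted p = 0.015). From the library values given above, both dKO SNI libraries lay below both WT SNI libraries for each of these genes. Dhcr7 (-0.63 ± 0.14), Scd1 (-0.71 ± 0.16), Scd2 (-0.71 ± 0.18) and Elovl5 (-0.57 ± 0.14) were lower as well. So were Fdft1 (-0.55 ± 0.14), Hmgcs1 (-0.66 ± 0.17), Srebf2 (-0.56 ± 0.15), Acat2 (-0.48 ± 0.14) and Elovl6 (-0.50 ± 0.16). Hsd17b7, which rose after axotomy in both genotypes, was lower in dKO than in WT ganglia after it (-0.67 ± 0.18, adjusted p = 0.0261). Lss and Msmo1 lay higher in both dKO SNI libraries than in both WT SNI libraries, with changes of 0.29 ± 0.13 and 0.26 ± 0.17 that did not pass (adjusted p 0.119 and 0.268).

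**Figure D3:**
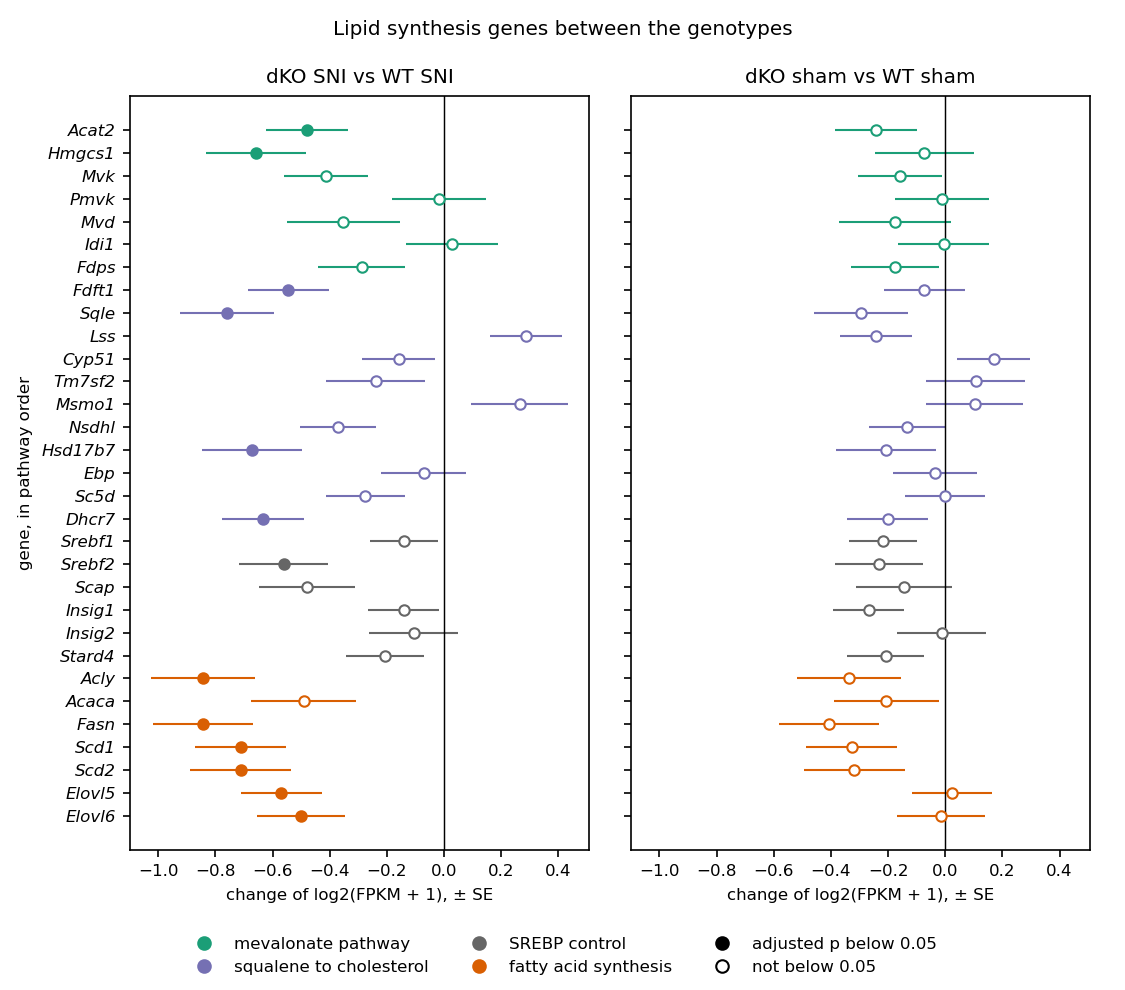
Change of log2(FPKM + 1) between the genotypes for the 31 genes, with dKO SNI against WT SNI on the left and dKO sham against WT sham on the right; points are limma estimates, bars are 1 standard error, and filled points have an adjusted p below 0.05. After axotomy 13 filled points lie left of 0, and in the sham panel no point is filled.

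Without nerve injury no member was called between dKO sham and WT sham (limma), where 0.155% of all genes were called, 0.0931% higher and 0.0621% lower. At an unadjusted p below 0.05 there was 1 member, Fasn (-0.41 ± 0.17, adjusted p = 0.443), beside 10.8% of all genes. The members' median was -0.18, beside 0.04 over all genes. Both dKO sham libraries lay below both WT sham libraries for 17 of the 31 members (18.3% of all genes did) and above them for 1 (27.8% of all genes). For the summed fatty acid genes the values given above correspond to 81.6% of WT sham in dKO sham, and for the 18 sterol synthesis genes to 95.4%. The comparison of dKO sham with WT sham shares its libraries with both injury comparisons, so the values of these comparisons are not independent of each other.

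Averaged over both surgeries, 9 members were lower in dKO than in WT and none higher, where 10.4% of all genes were called lower and 11.8% higher (22.2% in all). They were Fasn (-0.62 ± 0.12, adjusted p = 0.015), Acly (-0.59 ± 0.13), Scd1 (-0.52 ± 0.11), Sqle (-0.53 ± 0.12), Dhcr7 (-0.42 ± 0.10), Scd2 (-0.51 ± 0.13), Srebf2 (-0.40 ± 0.11), Acat2 (-0.36 ± 0.10) and Hsd17b7 (-0.44 ± 0.12). The median over the 31 members was -0.26, beside 0.01 over all genes. All 4 dKO libraries lay below all 4 WT libraries for Hmgcs1, Fasn, Srebf1 and Insig1, 4 of 31 members, beside 1.7% of all genes, and of these Fasn passed the test. No member was higher in all 4 dKO libraries (1.62% of all genes). The count of 9 was 0 without WT sham 2 (12 at an unadjusted p below 0.05), 1 without dKO SNI 2, without dKO sham 2 or without WT SNI 1, 4 without WT sham 1, 4 in an additive model and 5 without the filter. In the same comparison 8 of 12 sensory neuron markers were called lower and none higher, 10 of 12 macrophage markers and 6 of 7 fibroblast markers were called higher and none lower, and their part in the lipid gene values was not tested. Each side of this comparison and of the averaged injury comparison held 2 libraries with Y-linked transcripts and 2 without.

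Whether the injury response itself differed between the genotypes was tested as an interaction, and no member was called (limma), beside 0.0543% of all genes, 0.0466% higher and 0.00776% lower. At an unadjusted p below 0.05 there were 4 members, beside 14.5% of all genes: Elovl5 (-0.59 ± 0.20), Hmgcs1 (-0.59 ± 0.25) and Fdft1 (-0.47 ± 0.20), with the lower change in dKO, and Lss (0.53 ± 0.18). Their adjusted p lay between 0.281 and 0.328. The members' median was -0.28, beside -0.08 over all genes. Because no member was called here, the larger number of calls in dKO than in WT is not shown to be a difference in response. Y-linked transcripts were present in dKO SNI and WT sham and near 0 in the other groups, so in this test they cannot be told apart from the genotype's effect on the response.

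Genes next to these pathways were read from lists chosen by role, and their counts in the averaged injury comparison stand beside 25.5% of all genes called lower and 29.5% called higher. Of 8 genes that process SREBP or turn it over, 1 rose and none fell in SNI against sham averaged over the genotypes. This was Erlin1, an endoplasmic reticulum protein that binds the SREBP complex, at 7.61 and 7.57 FPKM in the dKO SNI libraries against 5.06 and 4.61 in dKO sham, and 6.79 and 6.90 in WT SNI against 3.95 and 4.15 in WT sham (0.60 ± 0.08, adjusted p = 0.000343). Of 12 genes of the isoprenoid branches, which use farnesyl and geranylgeranyl diphosphate for other products, 3 fell and none rose, a share of falls near that of all genes. They were Icmt, which methylates prenylated proteins (-0.82 ± 0.09), Dhdds, a subunit of dolichol synthesis (-0.71 ± 0.11), and the farnesyltransferase subunit Fntb (-0.30 ± 0.11). Icmt measured 13.3 and 11.5 FPKM in the dKO SNI libraries against 30.1 and 28.8 in dKO sham, and 23.5 and 24.2 in WT SNI against 34.4 and 31.9 in WT sham, with all SNI libraries below all sham libraries.

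Genes that take up, move or export sterol were called in both directions, as were all genes (25.5% lower and 29.5% higher). The shares of falls were near that of all genes, and movement both ways is not a result about these lists. Of 10 tested genes of sterol uptake and transport 5 rose and 2 fell, with Npc2, which moves cholesterol out of lysosomes, at 0.76 ± 0.11, Gramd1a at 0.57 ± 0.10 and Gramd1b at -0.66 ± 0.10. Gramd1a and Gramd1b carry cholesterol from the plasma membrane to the endoplasmic reticulum. Of 11 genes listed with LXR targets and sterol exporters 5 rose and 3 fell. The list also holds the LXR genes Nr1h2 and Nr1h3, Soat1, and the sterol hydroxylases Cyp27a1, Cyp46a1 and Ch25h. Abca1, which loads cholesterol onto lipoprotein, measured 23.2 and 23.0 FPKM in the dKO SNI libraries against 8.43 and 5.92 in dKO sham, and 25.5 and 23.9 in WT SNI against 7.53 and 7.70 in WT sham. All SNI libraries lay above all sham libraries (averaged change 1.58 ± 0.11, adjusted p = 9.96e-06), and the change in dKO SNI against WT SNI was -0.09 ± 0.15 and did not pass. Mylip, a ubiquitin ligase that degrades lipoprotein receptors, rose by 0.72 (SE 0.09), and the exporter Abcg1 fell by 0.90 (SE 0.13).

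Of 20 tested genes of other steps in fatty acid and glycerolipid synthesis, 10 fell and 1 rose in the averaged injury comparison. Lpin1, a phosphatidate phosphatase, measured 5.53 and 3.99 FPKM in the dKO SNI libraries against 12.6 and 12.6 in dKO sham, and 10.0 and 7.75 in WT SNI against 16.6 and 19.1 in WT sham (-1.10 ± 0.12, adjusted p = 8.97e-05). The elongase Elovl7 fell by 0.57 (SE 0.08) and the acyltransferase Agpat2 rose by 1.07 (SE 0.13). Of 11 tested genes of fatty acid oxidation, the opposite pathway, 6 fell and none rose, with Cpt1a, the carnitine transferase of mitochondrial entry, at -0.58 ± 0.11 and Cpt2, its partner in the inner membrane, at -0.58 ± 0.14. In dKO SNI against WT SNI 9 of the 20 were lower and 1 higher, and 4 of the 11 oxidation genes were lower, beside 13.4% of all genes lower and 10.7% higher. Of 8 genes listed for myelin lipid synthesis, 1 rose after axotomy, Aspa, which frees acetate from N-acetylaspartate (0.68 ± 0.17, adjusted p = 0.00852), and none fell. The list also holds Sptlc1, Sptlc2 and Sgms1, whose sphingolipid products are not particular to myelin.

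Markers of the ganglion's cell types changed in the same libraries. Their counts stand beside 25.5% of all genes called lower and 29.5% higher in the averaged injury comparison. In WT SNI against WT sham these shares were 9.38% and 13.6%, and in dKO SNI against dKO sham 24.6% and 23.8%. In dKO SNI against WT SNI they were 13.4% and 10.7%. The 12 sensory neuron markers summed to 4039 and 2753 FPKM in the dKO SNI libraries against 6318 and 7202 in dKO sham, or 50.2%, and to 6988 and 5300 in WT SNI against 6984 and 7780 in WT sham, or 83.2%. The WT sum was held up by the tubulin Tubb3, at 2085 and 1669 FPKM in WT SNI against 1348 and 1385 FPKM in WT sham. Of the 12 markers 11 had a WT change below 0, 6 were called lower and none higher, and the median change was -0.69. In dKO all 12 changes were below 0, 10 were called lower and the median was -1.33. Averaged over the genotypes 10 of these 12 were called lower and none higher, and 9 of 12 were lower in the comparison of dKO SNI with WT SNI. None of the 12 stayed under 1 FPKM in every library. The dKO SNI libraries, and dKO SNI 2 most of all, were thus lowest for the neuron markers as they were for most lipid synthesis genes. The 12 macrophage markers summed to 838 and 982 FPKM in the dKO SNI libraries against 90.2 and 142 in dKO sham, and to 465 and 485 in WT SNI against 80.7 and 63.4 in WT sham, with 12 of 12 called higher after axotomy and 8 of 12 called higher in dKO SNI against WT SNI. The 7 fibroblast markers were called higher too, 7 of 7.

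None of the 13 markers of myelinating Schwann cells was called lower in the averaged injury comparison, and 2 were called higher, beside 25.5% and 29.5% of all genes. They summed to 3514 and 2976 FPKM in the dKO SNI libraries against 3279 and 4842 in dKO sham, and to 4062 and 3495 in WT SNI against 2924 and 2360 in WT sham. In dKO the SNI sums overlapped the sham sums, and in WT they lay above them. Of 9 satellite glia markers 4 were called higher and 1 lower, of 7 endothelial markers 3 were called higher and none lower, and of 6 tested skeletal muscle markers none was called. For so few genes the satellite glia and endothelial counts are not far from the shares of all genes, and are not a result about these lists. The 9 adipocyte markers summed to 43.6 and 48.3 FPKM in the dKO SNI libraries against 11.8 and 23.2 in dKO sham, and to 67.2 and 49.2 in WT SNI against 3.95 and 18.7 in WT sham. In the SNI libraries most of these sums was 1 gene, Car3, with means of 37.1 of 46.0 FPKM in dKO SNI and 52.5 of 58.2 in WT SNI. In dKO the means of Adipoq (1.10 FPKM in SNI, 1.57 in sham) and Cfd (6.12 in SNI, 6.54 in sham) did not rise. The median change in dKO was 0.05. Of these 9, Plin1, Plin4, Lep, Retn and Adrb3 stayed under 1 FPKM in every library, and 3 were tested. Car3 and Cfd were called higher in the averaged injury comparison (2 of 3, median 0.91) and in WT alone (2 of 3, median 1.78), and Car3 alone in dKO. Car3 measured 35.5 and 38.8 FPKM in the dKO SNI libraries against 6.81 and 10.3 in dKO sham, and 61.6 and 43.3 in WT SNI against 3.55 and 17.4 in WT sham, above all sham libraries in all SNI libraries. In the averaged genotype comparison 2 of 3, Adipoq and Cfd, were called higher in dKO, beside 11.8% of all genes. The part that cell type makeup has in the fall of the lipid synthesis genes was not tested.

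**Figure D4:**
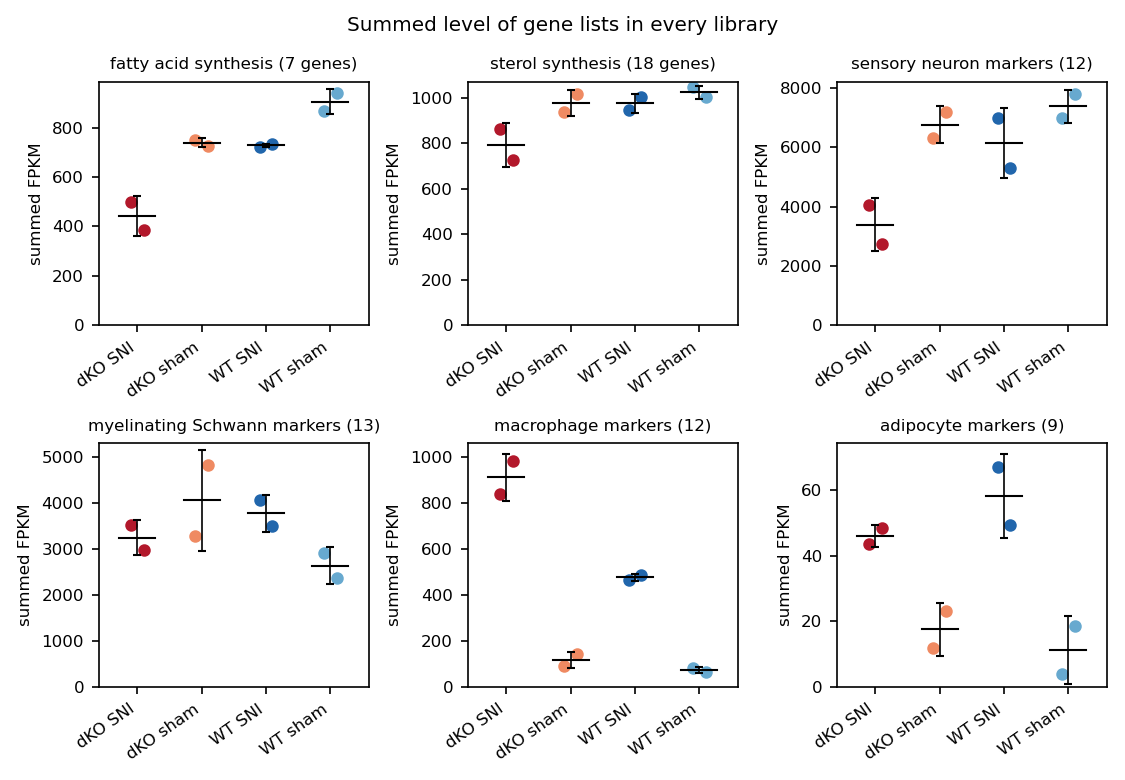
Summed FPKM of the 7 fatty acid synthesis genes, the 18 sterol synthesis genes and 4 lists of cell type markers in every library, by group; points are libraries, the long line is the group mean and the bars are the SD of the 2 libraries. Fatty acid synthesis genes and sensory neuron markers are lowest in dKO SNI, macrophage markers are highest there, and the Schwann cell markers of dKO SNI lie within the range of the other groups.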

How the data were processed

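Per the labels, total RNA was purified on columns and made into paired-end TruSeq RNA libraries; the labels do not say whether strand was kept. The authors deposited FPKM, 1 value per gene symbol and library. The submitters' processing notes list the tools HISAT2 (2.0.4), StringTie (1.3.0) and edgeR and the builds GRCm38.p4 and mm10, without their roles or the annotation. FPKM divides by each library's total, so a few very abundant transcripts lower the values of others.

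A gene was tested if it reached 1 FPKM in 2 or more of the 8 libraries (12884 genes). The deposited values were moved to log2(FPKM + 1), a scale that understates changes of low genes, and fitted in limma 3.58.1 (R 4.3.3) with a mean for each group (4 residual degrees of freedom), a mean-variance trend, two-sided tests and Benjamini-Hochberg adjustment. The averaged comparisons are means of 2 contrasts of that fit. The script was tested on simulated data. An exact permutation test over 2 and 2 libraries has a smallest p of 0.333 and was not used. All members are described, and up to 3 called genes with the smallest p are named for each neighbouring list; 1 gene that this rule takes is not reported here. The members and lists were chosen with earlier results of these data known. Gene positions and exon overlaps are from GENCODE on GRCm38. Other pseudocounts, filters, scalings, moderation, fits and libraries left out were tried as alternatives.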

Additional observations from a re-analysis of the deposited data

Results flagged for a closer look

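The cyclase Lss stood out because its libraries moved in opposite directions after axotomy. It measured 10.5 and 12.1 FPKM in the dKO SNI libraries against 9.59 and 9.93 in dKO sham, and 8.53 and 9.60 in WT SNI against 11.98 and 11.46 in WT sham. Every SNI library lay above the sham libraries in dKO and below them in WT, and equally dKO lay above WT after axotomy and below it after sham surgery. The interaction that tests this difference was 0.53 ± 0.18 (limma, adjusted p = 0.281), the same value for both ways of reading it, and it did not pass. Lss libraries differ in Y-linked transcripts in the same pattern, and the part of these was not tested.

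Cyp51 was lower in both dKO SNI libraries (36.9 and 33.0 FPKM) than in both WT SNI libraries (38.4 and 39.8 FPKM), but higher in both dKO sham libraries (43.9 and 49.2 FPKM) than in both WT sham libraries (41.8 and 40.7 FPKM). Its interaction was -0.33 ± 0.18 (limma, adjusted p = 0.412) and did not pass.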

How the results depend on the processing

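Over the 7 comparisons, 69 calls of a member were made and 19 alternatives tried; no call reversed and 24 were kept under every alternative that applied: 15 of 21 in the averaged injury comparison, 8 of 21 in dKO SNI against dKO sham (Dhcr7, Srebf2, Scap, Stard4, Acaca, Scd1, Elovl5 and Elovl6), 1 of 5 in WT SNI against WT sham (Hsd17b7), and 0 of 13 and 0 of 9 in dKO SNI against WT SNI and in averaged dKO against WT. Without the filter on low values the members called were 3 in WT SNI against WT sham, 7 in dKO SNI against WT SNI and 5 in averaged dKO against WT. A fit to the 2 groups alone gave 7 in dKO SNI against WT SNI, and an additive model 4 in averaged dKO against WT. The cause of these shifts was not tested. Leaving out each library in turn gave 1 to 6 members in WT SNI against WT sham, 9 to 21 in dKO SNI against dKO sham, 0 to 12 in dKO SNI against WT SNI, 16 to 23 in averaged SNI against sham, 0 to 13 in averaged dKO against WT, and 0 to 0 in dKO sham against WT sham and in the interaction; a group left with 1 library was assumed to vary like the others. The deviations of same-numbered libraries correlated at 0.25 between dKO SNI and WT SNI and at -0.19 to 0.09 between the other pairs of groups, so not every pair deviated together and the numbers were not taken to pair the samples; with a replicate block the members called were 4 in WT SNI against WT sham, 20 in dKO SNI against dKO sham, 0 in dKO sham against WT sham, 13 in dKO SNI against WT SNI, 18 in averaged SNI against sham, 9 in averaged dKO against WT and 0 in the interaction. Read depth is unknown, so counting error could not be set beside these values.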
